A study of Arabidopsis thaliana with 9 samples.

Results

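Transcript levels in roots of myb36-1 were compared with those in roots of myb36-2. Both are mutant lines of the transcription factor gene MYB36 in Arabidopsis thaliana. Of 38408 deposited probe sets, 31325 were tested, and the platform annotation pairs 17481 of these with a gene. The 17481 were chosen by that annotation and not by any measured value. Results are given for the 16548 genes that have a probe set paired with 1 gene alone. The study used 9 Affymetrix arrays of root RNA from plants 2 weeks old, 3 each for myb36-1, myb36-2 and the wild type Col-0. Plants of all 3 groups were grown alike, on plates of MGRL medium, a defined nutrient solution, with sucrose. Neither lesion is described in the labels. Whether arrays of 1 line stem from different cultures is not stated either, and the p-values therefore cover array-to-array spread that may be purely technical.

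MYB36 is known as the factor that switches on the genes of the Casparian strip in the root endodermis, the cell layer around the vascular cylinder. The strip is a band of lignin that seals the space between endodermal cells. Dirigent proteins such as ESB1, the CASP membrane proteins and class III peroxidases help to build it, and CIF peptides with the receptor kinase GSO1 monitor whether it is closed. Mutants that lack a closed strip are known to lay down lignin and suberin elsewhere and to change their mineral balance. A contrast of the 2 lines holds whatever differs between the lesions together with any other difference between the stocks or their plants, and these cannot be told apart here.

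MYB36 itself, the CASP genes and ESB1 were not analysed here, because no probe set is named for them, so the labels of the lines were not checked against the MYB36 transcript. Of 10 genes typical of root tissue 5 were measured, and none was called between the lines. PYK10, a beta-glucosidase of root endoplasmic reticulum bodies, lay between 12.53 and 12.77 on the log2 scale in all 9 arrays. Published names are used here for a few genes that the files give by locus only: DIR24 (AT3G55230), DIR9 (AT2G39430), DIR18 (AT4G13580), SGN1 (AT1G61590), PER9 (AT1G44970), PER39 (AT4G11290), PER72 (AT5G66390), CIF1 (AT2G16385), CIF2 (AT4G34600), LOTR1 (AT5G50150), IMA2 (AT1G47395) and CO2 (AT1G62500).

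As deposited, the myb36-1 arrays had median log2 values of 4.58 to 4.61, the myb36-2 arrays 4.85 to 4.87 and the Col-0 arrays 4.59 to 4.62. The comparison was therefore made after quantile normalisation over all 9 arrays, which gives every array the same distribution of values and is called the common scale below. Across probe sets on that scale, which are not independent, Pearson's r between arrays was 0.992 to 0.994 within myb36-1, 0.991 to 0.993 within myb36-2 and 0.992 to 0.993 within Col-0. It was 0.984 to 0.988 between myb36-1 and myb36-2, 0.988 to 0.992 between myb36-1 and Col-0, and 0.980 to 0.986 between myb36-2 and Col-0. The myb36-2 arrays thus stood somewhat farther from Col-0 than the myb36-1 arrays did.

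Between the 2 lines 738 of 16548 measured genes differed, 378 higher and 360 lower in myb36-1. These were 4.46% of all measured genes, 2.28% higher and 2.18% lower. Each gene was represented by its brightest probe set, and a gene was called at a Benjamini-Hochberg adjusted p under 0.05 in limma over 31325 probe sets. Most differences were small: the median size among called genes was 0.56 log2 units, with quartiles of 0.46 and 0.70, against 0.137 over all measured genes. A difference of at least 1 log2 unit, which is a factor of 2, was reached by 34 called genes (0.205% of measured genes), 14 higher and 20 lower in myb36-1. At least 2 units were reached by 2 genes, QQS and DIR24. The myb36-1 and myb36-2 arrays did not overlap in any of the 738 genes; without regard to the call, this held for 27.7% of measured genes.

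The called genes lay mainly at intermediate levels. When measured genes were divided by mean level over all 9 arrays into 4 groups of 4137, the dimmest held 57 called genes, the middle groups 319 and 317 and the brightest 45, which were 1.38%, 7.71%, 7.66% and 1.09% of each. The median size of the difference over all genes of a group was 0.130, 0.208, 0.166 and 0.0858 log2 units from the dimmest to the brightest. No detection call is given with these arrays, so the level below which a transcript is absent is unknown.

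**Figure D1:**
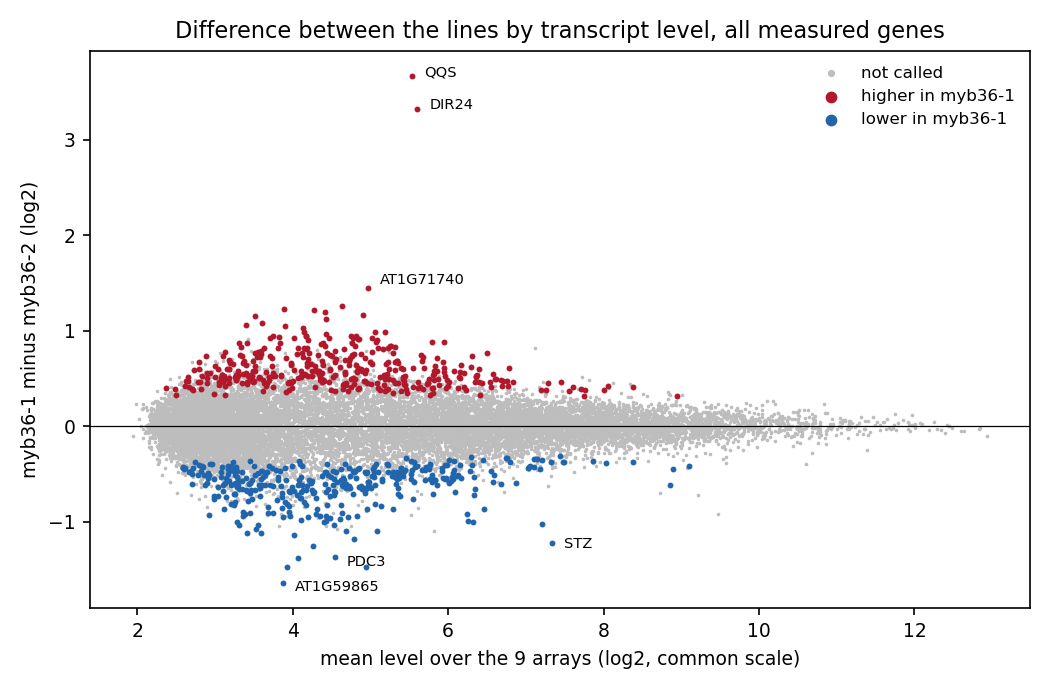
Each point is a measured gene, with its mean level over the 9 arrays (log2, common scale) on the x axis and myb36-1 minus myb36-2 (log2) on the y axis; red points were called higher in myb36-1, blue points lower and grey points were not called. QQS and DIR24 stand alone above 2 log2 units, and 636 of the 738 called genes lie in the 2 middle groups of level.

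Among the Casparian strip genes, a pair of dirigent genes separated the lines. DIR24, a member of the dirigent family, whose proteins guide the coupling of lignin and lignan precursors, had 5.96, 5.80 and 6.20 in the myb36-1 arrays, 2.37, 3.17 and 2.47 in the myb36-2 arrays, and 8.12, 8.10 and 8.22 in the Col-0 arrays. The 3 lines formed separate steps, with myb36-1 between myb36-2 and the wild type. The difference between the mutants was 3.32 ± 0.19 log2 units (SE, n = 3 arrays per line; 95% interval 2.88 to 3.76), with an adjusted p of 6.91e-05 in limma. The myb36-2 mean of 2.67 lies among the dimmest levels on the arrays. Without a detection call, signal cannot be told from background there, so no fold is given for DIR24. DIR9, another dirigent gene, had 3.34, 3.33 and 3.77 in myb36-1, 2.53, 2.47 and 2.61 in myb36-2, and 6.41, 6.63 and 6.51 in Col-0. Here both mutants lay far below Col-0, and the myb36-2 arrays were lower still, by 0.95 ± 0.12 (adjusted p 0.00663 in limma). The myb36-2 mean of DIR9, 2.53, was dimmer than that of DIR24 and likewise cannot be told from background. The size of this step is therefore uncertain. Both calls remained under each of the 3 other scalings and without each single array.

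The other 9 of the 11 measured Casparian strip genes, of 24 listed, were not called. SGN1, a kinase gene of strip surveillance, differed by 0.25 (95% interval -0.03 to 0.53) and the dirigent gene DIR18 by 0.20 (-0.35 to 0.75). DIR18 had 4.82, 5.06 and 4.67 in myb36-1, 4.02, 4.76 and 5.17 in myb36-2, and 6.34, 6.23 and 6.15 in Col-0, so both mutants were below Col-0 while their own arrays overlapped. Of the peroxidase genes, PER72 differed by 0.19 (-0.05 to 0.44), PER39 by -0.03 (-0.20 to 0.14) and PER9 by -0.34 (-0.74 to 0.05). PER9 had 3.43, 3.57 and 3.63 in myb36-1, 3.91, 3.73 and 4.02 in myb36-2, and 4.90, 5.40 and 4.64 in Col-0. Its myb36-2 values thus lay above the myb36-1 values, the opposite order to DIR24 and DIR9, and it was called on the values as deposited (-0.62, adjusted p 0.0385 in limma).

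The other measured genes of strip surveillance and LOTR1 were not called either. CIF1 differed by 0.14 (95% interval -0.20 to 0.47), CIF2 by -0.13 (-0.31 to 0.05), GSO1 by -0.09 (-0.30 to 0.12) and LOTR1, needed for the correct position of the strip, by 0.06 (-0.09 to 0.22). The median over the 11 genes was 0.14, against 0.00 over all measured genes. The called share of the 11 was 18.2%, against 4.46% of all measured genes. The list was drawn up with earlier results of these data known, so its 2 calls are no independent evidence of a direction.

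Like DIR9, 6 further called genes had a Col-0 mean that lay beyond the myb36-1 mean by more than the mutants differed. AT1G71740 had 4.84, 4.29 and 4.62 in myb36-1, 3.51, 2.83 and 3.07 in myb36-2, and 6.94, 7.34 and 7.24 in Col-0, a difference between the mutants of 1.45 ± 0.20 (adjusted p 0.00735 in limma). AT1G30750 had 5.38, 5.31 and 5.43 in myb36-1, 4.102, 4.84 and 4.52 in myb36-2, and 7.50, 7.55 and 7.54 in Col-0 (0.89 ± 0.16, adjusted p 0.0192). Both genes repeat the order of DIR24, with Col-0 highest and myb36-2 lowest; the call of AT1G30750 was lost without any single myb36-1 array and without replicate 3 of myb36-2.

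The remaining 4 of these 6 genes ran the other way, with Col-0 lowest and myb36-2 highest. AT5G19240 had 6.82, 6.27 and 6.42 in myb36-1, 7.54, 7.27 and 7.29 in myb36-2, and 5.44, 5.64 and 5.48 in Col-0 (-0.86 ± 0.14, adjusted p 0.0155 in limma; lost without replicate 3 of myb36-1). AT1G05450 had 4.78, 4.66 and 4.62 in myb36-1, 5.29, 5.23 and 5.22 in myb36-2, and 3.86, 3.85 and 4.08 in Col-0, with a difference of -0.56 ± 0.09. AT3G59080 (-0.42 ± 0.09) and AT1G36640 (-0.37 ± 0.08) followed the same order, but their calls were lost after median centring and without most single arrays. DIR9 and these 6 genes were picked by the position of the Col-0 mean. That choice alone places both mutant means on one side of Col-0, with myb36-2 farther out. The shared order is therefore no separate result.

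**Figure D2:**
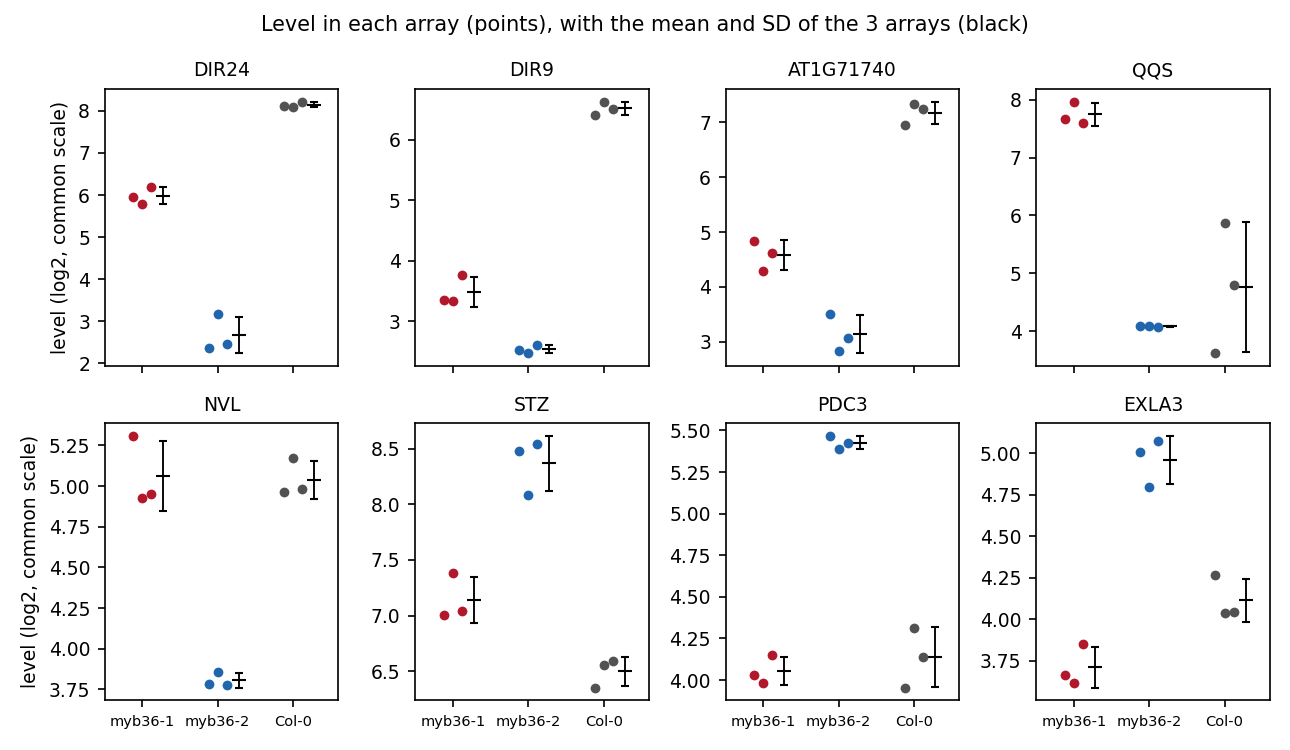
Each panel shows a gene, with the level of each of the 3 arrays per line (points; log2, common scale) and the mean ± SD of those 3 arrays (black); the y axis differs between panels and does not start at 0. In DIR24, DIR9 and AT1G71740 both mutants lie below Col-0 and myb36-2 is lowest, in QQS myb36-1 is highest, and in NVL, PDC3 and EXLA3 myb36-2 stands apart from the other lines.

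The largest difference of all measured genes belonged to QQS, a gene confined to Arabidopsis thaliana that is known to affect starch content. It had 7.67, 7.97 and 7.60 in myb36-1, 4.09, 4.08 and 4.08 in myb36-2, and 3.61, 5.87 and 4.80 in Col-0. The myb36-1 arrays were above all others, and the Col-0 arrays were spread far more widely than those of either mutant. The difference between the mutants was 3.66 ± 0.44, or 12.7-fold (adjusted p 0.00463 in limma), and was called without each single array.

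In QQS the Col-0 mean was nearer to myb36-2, which was uncommon. Over the 738 called genes, the Col-0 mean was nearer to myb36-1 in 673 (91.2%) and nearer to myb36-2 in 65 (8.81%). Over all measured genes these shares were 64.8% and 35.2%. The split was alike in both directions: 351 of 378 genes higher in myb36-1 and 322 of 360 lower ones had Col-0 nearer to myb36-1. Among the 34 genes that differed by at least 1 log2 unit it was 32, with QQS and AT5G35940 as the exceptions. The Col-0 mean lay between the mutant means in 452 called genes, beyond the myb36-1 mean in 279 and beyond the myb36-2 mean in 7. These counts are given as a description, with no test. As deposited, the myb36-2 arrays also stood apart in scale, and scale and line cannot be told apart in these counts.

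**Figure D3:**
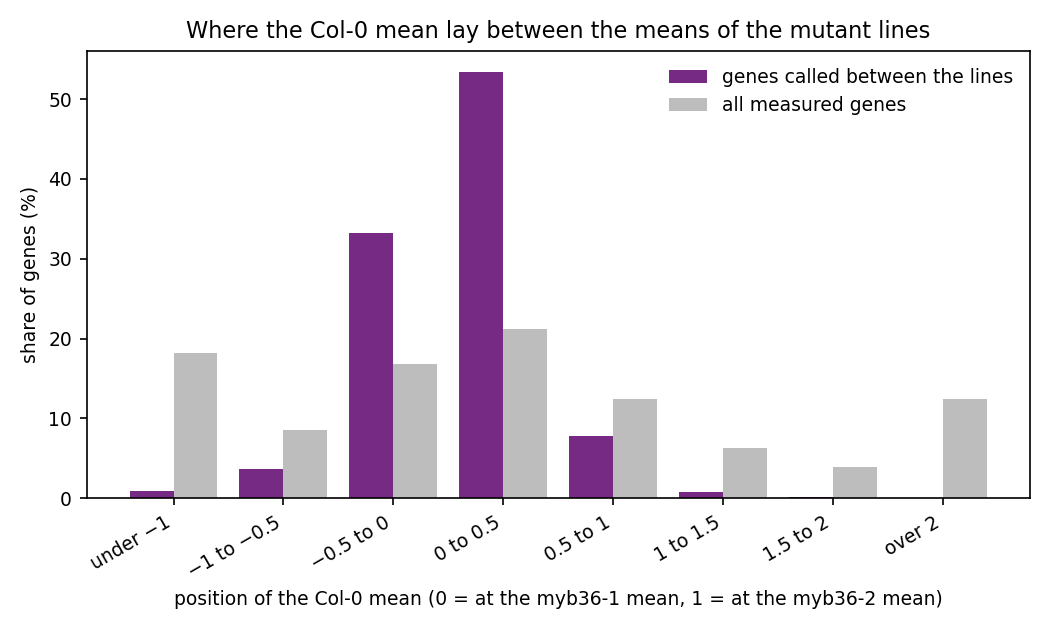
Bars give the share of genes (%) by the position of the Col-0 mean, on a scale where 0 is the myb36-1 mean and 1 the myb36-2 mean, for genes called between the mutant lines (purple) and all measured genes (grey). Of the called genes 33.2% lie from -0.5 to 0 and 53.4% from 0 to 0.5, against 16.8% and 21.2% of all measured genes.

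In 7 called genes the Col-0 mean lay beyond the myb36-2 mean. AT5G39493 had 5.41, 5.02 and 5.07 in myb36-1, 4.42, 3.98 and 4.31 in myb36-2, and 3.89, 4.15 and 3.95 in Col-0 (0.93 ± 0.14, adjusted p 0.0118 in limma), and its call remained without each single array. The others were close to the threshold, and each lost its call without at least 5 of the 6 single mutant arrays. They included CLE41, which encodes a phloem peptide known to maintain vascular stem cells, with 7.27, 7.33 and 7.10 in myb36-1, 7.58, 7.66 and 7.59 in myb36-2, and 7.64, 7.61 and 7.60 in Col-0 (-0.38 ± 0.08). TBL33, of a family that acetylates cell wall polysaccharides, was likewise lower in myb36-1 (-0.35 ± 0.07), as were AT1G76250 (-0.40) and AT4G11211 (-0.37), whereas AT4G33980 (0.54) and AT5G39110 (0.53) were higher.

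Among the 15 largest positive differences, 14 had a Col-0 mean nearer to myb36-1, DIR24 and AT1G71740 included, and QQS was the exception. NVL, a homologue of the vascular development gene NO VEIN, had 5.31, 4.93 and 4.95 in myb36-1, 3.79, 3.86 and 3.77 in myb36-2, and 4.96, 5.17 and 4.98 in Col-0 (1.26 ± 0.11, 2.39-fold, adjusted p 0.0016 in limma). LCR39, a defensin-like cysteine-rich peptide gene, had 4.62, 4.41 and 4.13 in myb36-1, 3.50, 2.90 and 3.08 in myb36-2, and 3.84, 4.15 and 4.43 in Col-0 (1.22 ± 0.20, adjusted p 0.0137); its call was lost without replicate 3 of myb36-2. PRA1.B3, of a family of membrane traffic proteins, had 5.30, 5.59 and 5.69 in myb36-1, 4.54, 4.57 and 4.51 in myb36-2, and 5.46, 5.50 and 5.57 in Col-0 (0.99 ± 0.10, adjusted p 0.00305).

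The others of these 15 are known in the files by locus only: AT5G48060 (1.22), AT3G46070 (1.20), AT3G23870 (1.16), AT1G62085 (1.16), AT1G79540 (1.12), AT5G02890 (1.08), AT1G62060 (1.06), AT1G51355 (1.05) and AT1G31490 (1.03). In AT5G48060, for example, the values were 4.74, 4.52 and 4.54 in myb36-1, 3.58, 3.31 and 3.25 in myb36-2, and 4.88, 4.77 and 4.84 in Col-0. Without replicate 3 of myb36-2 the calls of AT1G62060 and AT1G51355 were lost; the other 7 kept theirs without each single array. A second probe set of AT1G31490, dimmer than the first, differed by 0.08 (adjusted p 0.854 in limma). The myb36-2 means of AT1G62085 (2.73), AT1G62060 (2.78) and AT5G02890 (2.92) were nearly as dim as that of DIR24. The size of these differences is therefore uncertain.

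Of the 15 largest differences in the other direction, 14 had a Col-0 mean nearer to myb36-1. PDC3, which encodes a pyruvate decarboxylase of the ethanol fermentation pathway, had 4.03, 3.98 and 4.15 in myb36-1, 5.47, 5.39 and 5.42 in myb36-2, and 3.95, 4.32 and 4.14 in Col-0 (-1.37 ± 0.10, adjusted p 0.000441 in limma). Its level in myb36-2 was 2.59-fold that in myb36-1. EXLA3, an expansin-like gene, had 3.66, 3.62 and 3.85 in myb36-1, 5.01, 4.80 and 5.08 in myb36-2, and 4.26, 4.03 and 4.04 in Col-0 (-1.25 ± 0.11, adjusted p 0.00122). In both genes the myb36-2 arrays were above all others.

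STZ, a zinc finger repressor induced early in abiotic stress, had 7.005, 7.38 and 7.04 in myb36-1, 8.48, 8.08 and 8.54 in myb36-2, and 6.35, 6.55 and 6.59 in Col-0. The lines formed 3 steps, with Col-0 lowest, and the mutants differed by -1.23 ± 0.15 (adjusted p 0.00463 in limma). AT1G59865 showed a similar order, with 3.66, 3.64 and 3.35 in myb36-1, 5.002, 5.03 and 5.52 in myb36-2, and 2.87, 2.83 and 2.93 in Col-0 (-1.64 ± 0.14, adjusted p 0.00135). It had the largest difference in this direction.

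The other genes of this set are again known by locus: AT1G14480 (-1.48), AT5G41740 (-1.47), AT1G19650 (-1.38), AT5G40000 (-1.18), AT3G02120 (-1.14), AT3G16510 (-1.12), AT4G20670 (-1.11), AT5G35940 (-1.10), AT4G22900 (-1.09), AT1G54540 (-1.07) and AT1G21950 (-1.04). AT5G35940 was the exception in position, with 4.41, 4.56 and 4.50 in myb36-1, 5.86, 5.23 and 5.68 in myb36-2, and 4.92, 5.40 and 5.18 in Col-0. The calls of AT4G20670, AT4G22900 and AT1G21950 were each lost without 3 or more of the single mutant arrays; the other 8 kept theirs without each single array.

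The gene lists were described by counts and medians. Of 399 genes on 20 lists, 122 were measured and 12 were called, 6 in each direction, or 9.84% against 4.46% of all measured genes. The lists were chosen with earlier results known, so the gap between these shares supports nothing by itself. In 12 of the lists that had measured members, none was called.

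Of the genes of the rapid response to stress and touch, 18 of 39 listed were measured. In myb36-1, 3 of the 18 were lower than in myb36-2, where 2.18% of all measured genes were, and none was higher. The median difference was -0.29, against 0.00 over all measured genes, and no test was made of the list. Beside STZ these were AT4G29780, with 5.46, 4.99 and 5.01 in myb36-1, 5.83, 5.66 and 6.16 in myb36-2, and 5.05, 5.10 and 5.15 in Col-0 (-0.73 ± 0.16, adjusted p 0.0356 in limma), and AR781, with 5.57, 5.65 and 5.97 in myb36-1, 6.28, 6.35 and 6.69 in myb36-2, and 5.31, 5.35 and 5.07 in Col-0 (-0.71 ± 0.14, adjusted p 0.0312). The lowest AR781 values were those of Col-0. The call of AT4G29780 was lost without 4 of the mutant arrays and without each Col-0 array, and that of AR781 without 4 of the mutant arrays; STZ was called without each. AT4G27652 differed by -0.93 (95% interval -1.55 to -0.31) and was not called (adjusted p 0.0973).

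The called low-oxygen genes went in both directions. Of 26 measured of 47 listed, AT5G10040 and AT5G66985 were higher in myb36-1, PDC3 was lower, and the median was 0.02. The called share was 11.5%, against 4.46% of all measured genes, in a list chosen with earlier results known. AT5G10040 had 3.75, 3.29 and 3.33 in myb36-1, 3.01, 2.72 and 2.58 in myb36-2, and 3.28, 3.30 and 3.32 in Col-0 (0.69 ± 0.14, adjusted p 0.0337 in limma). AT5G66985 had 4.94, 5.30 and 4.91 in myb36-1, 4.61, 4.41 and 4.44 in myb36-2, and 5.42, 5.14 and 5.19 in Col-0 (0.56 ± 0.13, adjusted p 0.0428). Both calls were lost on the values as deposited and without most single arrays. The myb36-2 values of AT5G10040 were about as dim as those of DIR24, so the size of its difference is uncertain. PDC2, the other pyruvate decarboxylase gene measured under a symbol, differed by 0.33 (95% interval -0.28 to 0.94), so the large PDC3 difference was not shared by it.

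Single genes were called in 4 further lists. IMA2, which encodes a small peptide of the iron deficiency response, had 3.47, 3.15 and 3.27 in myb36-1, 3.70, 3.73 and 3.70 in myb36-2, and 3.56, 3.53 and 3.40 in Col-0 (-0.41 ± 0.10, adjusted p 0.0461 in limma), the only call among 9 measured genes of that list. AT3G43110, of the phosphate starvation list, differed by -0.54 ± 0.12 (adjusted p 0.0356). Neither call held without any 1 of the Col-0 arrays. AT5G66540, of the ribosome biogenesis list, had 5.66, 5.51 and 5.45 in myb36-1, 4.67, 4.64 and 4.80 in myb36-2, and 5.66, 5.59 and 5.33 in Col-0 (0.84 ± 0.11, adjusted p 0.00594); the other 11 measured genes of the list were not called, with a list median of 0.08. RCA, the activase of the carbon-fixing enzyme rubisco, had 6.95, 6.69 and 6.55 in myb36-1, 6.19, 6.26 and 6.26 in myb36-2, and 7.02, 6.80 and 6.87 in Col-0 (0.49 ± 0.11, adjusted p 0.0434), a call lost as deposited, without 5 of the 6 single mutant arrays and without each Col-0 array. The only other leaf gene measured, LHCB4.1 of the light-harvesting antenna, differed by -0.09 (95% interval -0.41 to 0.23).

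None of the 8 measured genes of lignin and phenylpropanoid metabolism was called, and their median was 0.13. The peroxidase gene PRX52 had 7.64, 7.54 and 7.89 in myb36-1, 7.45, 7.10 and 7.24 in myb36-2, and 5.07, 4.56 and 4.97 in Col-0. It was well above Col-0 in both mutants, while the difference between them was 0.42 (95% interval 0.08 to 0.77) and missed the threshold (adjusted p 0.161 in limma). Among the markers of other root cell types, the 3 cortex genes had a median of -0.34 with none called; CO2 had 3.08, 3.20 and 3.33 in myb36-1, 3.63, 3.53 and 3.46 in myb36-2, and 2.96, 3.34 and 3.33 in Col-0 (adjusted p 0.154). The endodermal regulators BLJ and JKD differed by 0.31 and 0.19 and the root hair expansins EXPA7 and EXPA18 by 0.18 and -0.03, none of them called. In whole roots, fewer cells of a type and less RNA per cell cannot be told apart.

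The lists for suberin, flavonoids, nitrate, heat shock, abscisic acid, jasmonate and salicylic acid had from 1 to 7 measured members each and no call. Their medians were -0.09, 0.21, 0.01, -0.12, 0.07, 0.09 and -0.24 in that order. No gene of the cell cycle list was measured.

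**Figure D4:**
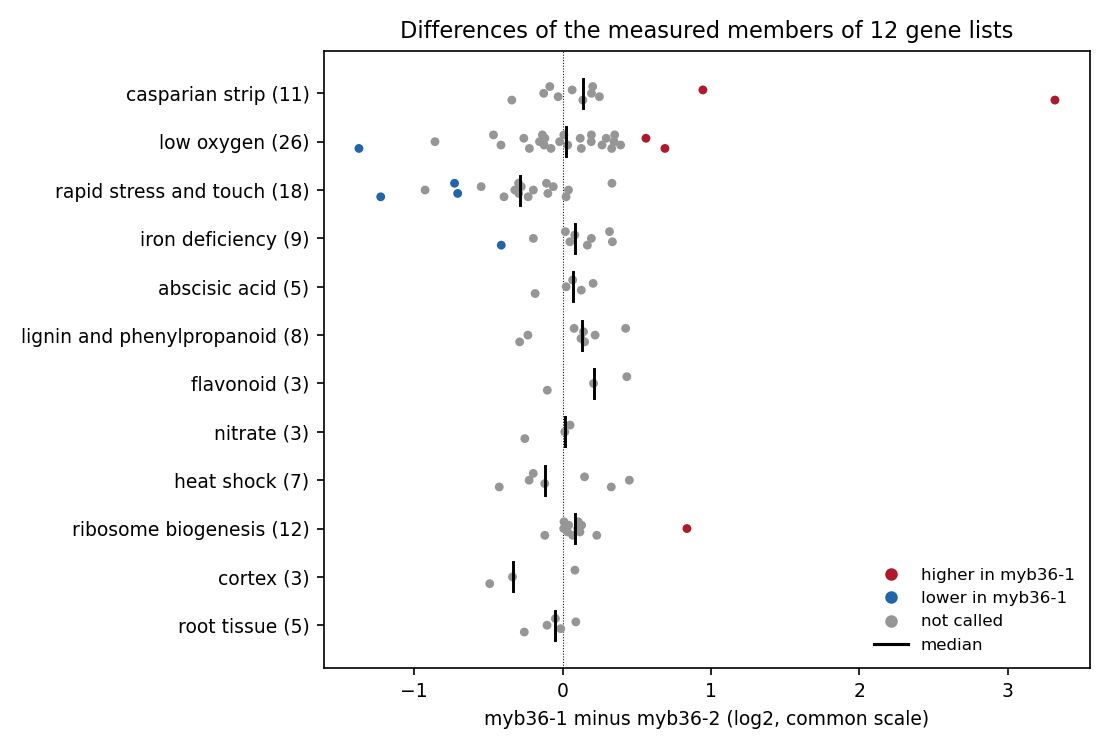
Each point is a measured member of a gene list, with myb36-1 minus myb36-2 (log2, common scale) on the x axis and the list on the y axis, its number of measured members in brackets; red points were called higher in myb36-1, blue lower and grey not called, and the black line is the median. The Casparian strip points end in DIR24 at 3.32, and the rapid stress and touch points have a median of -0.29.

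Of the 738 called genes 66 carry a symbol, 41 higher and 25 lower in myb36-1, and they can be ordered by what they are known to do. They were picked out after their values were seen. Genes of the cell wall were divided between both directions. Beside EXLA3, its relative EXLA2 had 4.63, 4.72 and 4.87 in myb36-1, 3.98, 3.99 and 3.96 in myb36-2, and 4.70, 4.71 and 4.46 in Col-0 (0.76 ± 0.10, adjusted p 0.00602 in limma), the opposite sign to EXLA3. The expansin gene EXPA8 (-0.53 ± 0.12) and the xyloglucan-modifying XTH19 (-0.66 ± 0.12) were lower in myb36-1, whereas GH9B10, of the endoglucanase family (0.98 ± 0.20), and TBL28 (0.52 ± 0.12) were higher. The calls of EXPA8, XTH19, GH9B10 and TBL28 were each lost without 4 or more single mutant arrays, whereas EXLA2 and EXLA3 kept theirs without each.

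Transcriptional regulators also went both ways. WRKY22, a factor of the immune response, had 3.77, 4.05 and 3.67 in myb36-1, 4.71, 4.52 and 4.72 in myb36-2, and 4.11, 3.81 and 4.15 in Col-0 (-0.82 ± 0.13, adjusted p 0.0119 in limma). BBM, known for embryo and root meristem development, had 3.99, 4.06 and 4.23 in myb36-1, 4.76, 5.10 and 5.03 in myb36-2, and 3.86, 3.96 and 3.85 in Col-0 (-0.87 ± 0.11, adjusted p 0.00543). AMS, known for anther development, differed by -0.73 ± 0.07 and TRY, a repressor in hair cell patterning, by -0.55 ± 0.10. AMS was dim, with means of 2.76 in myb36-1, 3.48 in myb36-2 and 2.89 in Col-0, so its values may be largely background. Higher in myb36-1 were bHLH34 (0.79 ± 0.13), ATMYC1, a basic helix-loop-helix factor of epidermal cell fate (0.66 ± 0.12), and BZIP28, a sensor of stress in the endoplasmic reticulum (0.47 ± 0.10). The calls of WRKY22, BBM, AMS and bHLH34 remained without each single array; those of TRY, ATMYC1 and BZIP28 did not.

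Of genes tied to defence, the chitinase gene CHI had 5.71, 5.30 and 5.36 in myb36-1, 6.08, 6.36 and 6.22 in myb36-2, and 4.94, 5.01 and 4.96 in Col-0 (-0.76 ± 0.12, adjusted p 0.0119 in limma), again with both mutants above Col-0. PUB23, a ubiquitin ligase known to dampen immune signalling, differed by -0.45 ± 0.07. In PUB23, whose call was lost without replicate 3 of either mutant, myb36-2 alone stood apart, with 8.75, 8.76 and 8.75 in myb36-1, 9.14, 9.20 and 9.26 in myb36-2, and 8.70, 8.78 and 8.67 in Col-0.

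Metabolic genes with a symbol went both ways: beside PDC3, the cytochrome P450 gene CYP718 (-0.45) and the glycosyltransferase gene UGT85A3 (-0.42) were lower in myb36-1. Unlike that of PDC3, the calls of CYP718 and UGT85A3 were lost without most single mutant arrays. That of CYP718 was also lost without each Col-0 array. HEME1 and HEME2, which encode uroporphyrinogen decarboxylases of tetrapyrrole synthesis, were both higher. HEME2 had 5.92, 5.90 and 5.90 in myb36-1, 5.0003, 5.26 and 5.41 in myb36-2, and 5.79, 5.86 and 5.94 in Col-0 (0.68 ± 0.11, adjusted p 0.0119 in limma). HEME1 had 6.06, 6.19 and 6.17 in myb36-1, 5.67, 5.39 and 5.48 in myb36-2, and 5.91, 5.85 and 5.74 in Col-0 (0.63 ± 0.09, adjusted p 0.0103), so its Col-0 values lay between those of the mutants.

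SRX, a sulfiredoxin that repairs oxidised peroxiredoxins (0.67 ± 0.09), CYP84A4, a cytochrome P450 of arabidopyrone synthesis (0.97 ± 0.14), UGT74B1, a glucosyltransferase of glucosinolate synthesis (0.57 ± 0.09), and UGT78D3, which glycosylates flavonols (0.48 ± 0.07), were also higher in myb36-1. All 6 of these calls, HEME1 and HEME2 included, remained without each single array and under the other scalings. SDH2-3 (0.58 ± 0.13), a subunit of succinate dehydrogenase, and ETFALPHA (0.37 ± 0.08) and D2HGDH (0.42 ± 0.10), which pass electrons from amino acid breakdown to the mitochondrial chain, were called higher too, but each call was lost as deposited and without all 3 single Col-0 arrays.

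Counts over gene families showed no family that differed as a whole. In 40 families defined by symbol, 26 of 687 genes were called, 14 higher and 12 lower in myb36-1, or 3.78% against 4.46% of all measured genes. No family had more than 3 called members and 23 had none. The expansins had 1 higher and 2 lower of 22, the cytochromes P450 2 higher and 1 lower of 28, and the UDP-glycosyltransferases 2 higher and 1 lower of 51. The largest family, 90 defensin-like peptide genes, had LCR39 alone. None of 64 AGAMOUS-like, 32 serine carboxypeptidase-like, 22 beta-glucosidase or 14 cytosolic ribosomal protein genes was called. The families were defined after the files were seen, because the reference carries no descriptions, and the called genes known by locus only fall in none of them.

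The called genes were spread over the genome. On chromosomes 1 to 5 the share of measured genes called was 4.35%, 4.42%, 4.35%, 4.67% and 4.70%. Around MYB36, on chromosome 5, 1 of the 10 nearest measured genes on either side, 20 in all, was called, and their differences ranged from -0.40 to 0.62 with a median of 0.07. The called neighbour, AT5G57460, had 6.59, 6.51 and 6.42 in myb36-1, 5.83, 5.87 and 5.95 in myb36-2, and 6.57, 6.43 and 6.51 in Col-0 (0.62 ± 0.08, adjusted p 0.00602 in limma). No run of 3 or more neighbouring measured genes was called in the same direction. Runs of 2 numbered 17 among 16437 adjacent pairs, 6 higher and 11 lower in myb36-1. Over all measured genes 2.28% were called higher and 2.18% lower. Whether 17 runs exceed what these shares alone would give was not tested, so nothing is concluded on clustering from the count. Whether the genes of a pair share probes was not tested either.

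The direction of the calls depended on the scale. On the values as deposited 2828 genes were called, 146 higher (0.882% of measured genes) and 2682 lower (16.2%) in myb36-1, and the median difference over all measured genes was -0.17, against 0.00 on the common scale. By level, the shift ranged from -0.26 in the dimmer middle group to -0.13 in the brightest, and the 7083 unnamed probe sets left out of the test shifted by -0.19. Of the 738 genes, 506 had the same call on both scales: all 360 that were lower and 146 of the 378 that were higher, while all 378 stayed positive. After median centring 567 were higher and 378 lower, and after cyclic loess 382 and 439. The scale of the myb36-2 arrays coincides with the line, and the 2 cannot be told apart.

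**Figure D5:**
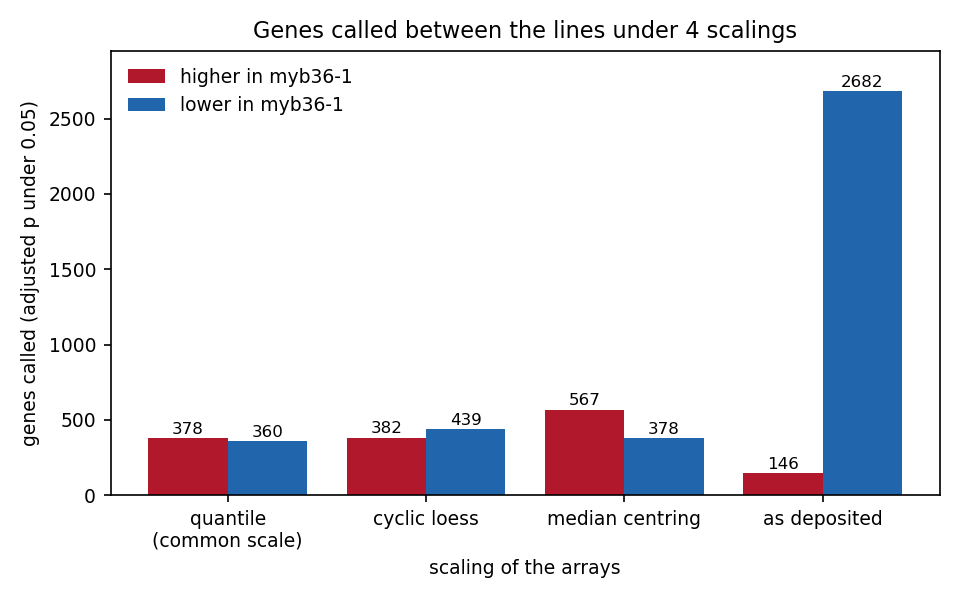
Bars give the number of genes called between the mutant lines at an adjusted p under 0.05, higher in myb36-1 (red) and lower (blue), under 4 scalings of the arrays. Quantile normalisation gave 378 and 360, cyclic loess 382 and 439, median centring 567 and 378, and the values as deposited 146 and 2682.

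The number of calls also fell when any single array was left out. Fewer arrays enter those fits, so a loss of calls does not by itself mark the omitted array as unusual. Without each mutant array in turn, from 275 genes (without replicate 3 of myb36-2) to 466 (without replicate 1 of myb36-2) were called, and without each Col-0 array from 597 to 603. Of the 738 genes 183 kept their call without each of the 9 single arrays, 100 higher and 83 lower in myb36-1, and 172 of these had Col-0 nearer to myb36-1. Under all 19 settings that varied the scale, the arrays, the fit or the probe sets without changing the threshold or removing dim probe sets, 178 genes kept it, 95 higher and 83 lower, with 168 nearer to myb36-1. With the 7083 unnamed probe sets kept in the normalisation and the fit, 385 genes were called, all of them among the 738. QQS, DIR24, DIR9, AT1G71740, NVL, STZ, PDC3, EXLA3, HEME1 and HEME2 were among the 178.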

How the data were processed

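Root RNA was hybridised to 9 Affymetrix arrays. The submitters' processing notes name RMA, and the table the authors deposited is on a log2 scale. Not given in the sources used here are the RMA version and whether the 9 arrays were normalised jointly. Of 38408 probe sets, the first 7083 in identifier order, none paired with a gene, were omitted because they resemble control probe sets, a status that no label states. The remaining 31325 were quantile normalised over 9 arrays. A model with a mean for each line was fitted in R 4.3.3 with limma 3.58.1, using empirical Bayes moderation without trend. The contrast was two-sided, with Benjamini-Hochberg adjustment over 31325 probe sets and a threshold of 0.05. Intervals are 95%. Probe sets with 1 gene (16722) gave 16548 genes, each by its brightest probe set; 16505 matched the reference table (TAIR10.1), used for symbols, chromosomes and gene order. Probe sets with several genes (759) named none.

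Genes to be named were the 15 largest differences in each direction, every measured Casparian strip gene, up to 4 members of each list or family, and called neighbours of MYB36; others were chosen after their values were seen, among them the genes picked by the position of Col-0 and those grouped by symbol. The members and lists were chosen with earlier results of these data known. Families were defined by symbol in place of description words, which the reference lacks. Promoter sequences were not analysed here. The fit was tested on simulated data. Samples with the same replicate number did not deviate together (correlations 0.06, -0.16 and 0.06), so numbers were not treated as pairs. Alternatives varied scaling, probe sets, filters, moderation, weights, arrays and thresholds. The number of arrays limits the precision.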

Additional observations from a re-analysis of the deposited data

How the results depend on the processing

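Named differences (112) were followed through 23 alternatives. Those that changed sign were small and not called: as deposited, CIF1 (-0.0779), DIR18 (-0.0504) and LOTR1 (-0.0901); after median centring, PER39 (0.0401) and GSO1 (0.0168). Without single arrays DIR18 ranged from -0.11 to 0.4618 and PER39 from -0.0514 to 0.0015. The counts of probe sets called, of genes higher, of genes lower and of called genes with Col-0 nearer to myb36-1 were 1301, 378, 360 and 673. They stayed within 1.5 times of these after median centring and cyclic loess, with gene-annotated probe sets only, without the dimmest probe sets, with an intensity trend, with array weights and without single Col-0 arrays (probe sets 1034 to 1070, genes higher 312 to 314, lower 283 to 291, nearer 534 to 540). They were 4836, 146, 2682 and 2570 as deposited, 688, 210, 175 and 354 with all deposited probe sets, and 525, 150, 127 and 240 without the dimmer of 2 equal parts by level. With the 6 mutant arrays alone, 656, 187 and 172 were called in the fit and 659, 186 and 176 when quantile normalisation was also limited to them. An adjusted p under 0.01 left 247, 73, 61 and 130, and a difference of at least 1 log2 unit left 85, 14, 20 and 32. With the replicate block they were 803, 232, 213 and 407; no sample deviated most like its own number. Without single mutant arrays they ranged from 528 to 859, from 149 to 250, from 121 to 216 and from 254 to 435; fewer arrays enter those fits. The cause of the other shifts was not tested. The planned classes by description words were not run. Signal over background is not given, so calls on dim probe sets carry an unknown share of background.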
